A study of Mus musculus with 8 samples.

Results

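Ribosomes are built in the nucleolus, and the genes described here carry out that work. They are Myc, the transcription factor best known for driving cell growth, and 37 genes that act in the synthesis, modification and assembly of ribosomal RNA. The set is a list of 38 gene symbols, drawn up when earlier results of these data were known, so that its comparison with all features is a description. Each gene was read from its brightest probe with a detection p-value under 0.05 on at least 2 of 8 arrays, and 30 of the 38 genes were measured in this way. Polr1b, Rrn3 and Wdr43 had no probe under that symbol. Dkc1, Bysl, Wdr12, Nop16 and Rrs1 had 1 probe each, which was detected on 0 of 8 arrays, with a lowest detection p-value of 0.583 for Dkc1 and 0.0652 for Rrs1.

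The measurements came from Illumina bead arrays, on which short probes fixed to beads read the RNA of each gene, and from mouse embryonic fibroblasts (MEFs) of embryonic day 13.5 on a C57BL/6 background. The E2F3 LQ cells were homozygous for L430Q, a knock-in point mutation in the part of E2F3 that binds Rb, and the WT cells came from littermates of the same E2F3 LQ/+ intercross. The mutant allele had lost its neomycin cassette through Mox2Cre, and whether Cre remained in the embryos is not given in the sources used here. Each genotype was represented by 2 clones, E2F3 LQ clones 2 and 4 and WT clones 1 and 16, and each clone was measured once after 72 h without serum (0% FBS per the labels, where the methods for another assay give a low serum level) and once while proliferating in 10% FBS. This gave 4 groups of 2 arrays: starved E2F3 LQ, starved WT, proliferating E2F3 LQ and proliferating WT. The labels do not say that the clones of a genotype came from separate embryos, so the p-values measure the spread between these clones only.

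In growing cells RNA polymerase I transcribes a long precursor of ribosomal RNA from the repeated ribosomal genes. Small nucleolar ribonucleoproteins (snoRNPs) modify that precursor at sites picked by a guide RNA, the box C/D class by methylation and the box H/ACA class by turning uridine into pseudouridine. Large protein assemblies then cut and fold it into the small and the large ribosomal subunit. Myc, bound to DNA with its partner Max, activates genes at each of these steps, and removal of serum is a standard way to bring fibroblasts out of the cell cycle and reduce Myc. E2F3, held in check by Rb, is a transcription factor of the cell cycle.

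Values below are background-corrected, quantile-normalized log2 intensities, given for E2F3 LQ clone 2 and then clone 4, and for WT clone 1 and then clone 16. Differences are starved minus proliferating, or E2F3 LQ minus WT, on the same log2 scale. They were tested with limma in a model of the 4 groups, and a gene was called at a Benjamini-Hochberg adjusted p under 0.05, with the adjustment made over 10214 features. The arrays were alike in range, with median intensities of 108.4 to 127.3 and 12141 to 12420 probes detected on each, and the number of arrays limits the precision. All 9 measured fibroblast markers were detected on all 8 arrays, although 4 of them changed with serum, Col1a1 (-0.96) and Thy1 (-0.73) being lower in starved cells and Col3a1 (1.64) and Pdgfra (1.67) higher. Proliferating E2F3 LQ clone 2 stood apart. On that array 685 genes lay over 2-fold away from the remaining proliferating mean, where the other 3 arrays had 103 to 223 such genes. Spearman correlations between proliferating clones were 0.936 in E2F3 LQ and 0.977 in WT. The effect of leaving it out is described after the results by step, and beside some of the genes.

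Averaged over both genotypes, 7 of the 27 genes detected on all 8 arrays were lower in starved cells and 0 were higher. The 7 were the box C/D proteins Fbl and Nop56, the small-subunit factor Noc4l, and the large-subunit factors Mrto4, Nip7, Ebna1bp2 and Rrp1b. They make up 25.9% of these genes, where 14.1% of the 7784 features detected on all arrays were called lower and 13.4% higher. Over all 30 measured genes the calls were 8 lower (26.7%, against 11.5% of all features) and 0 higher (against 10.9%). The eighth was Myc, which entered the set only through the 4 proliferating arrays, where it was high, so its call and its place in the counts over 30 genes add no support. The median difference over the 30 genes was -0.20, against 0.00 over all features. There were 20 negative and 10 positive values, where 49.9% of all features were negative. All 4 starved arrays lay below all 4 proliferating arrays for 11 genes (36.7%, against 15.5% of all features) and above them for 0 (against 15%). In each of the 4 clones the starved array was the lower of the pair for 13 genes (43.3%, against 23.7%) and the higher for 1, Nop58 (3.33%, against 23.8%). Among the 27 genes detected throughout, the groups were apart for 10 (37%, against 17.8% of such features) and all clones lower for 12 (44.4%, against 26%). In bulk RNA, fewer cells of a type and less RNA per cell cannot be told apart, and since each array is scaled to the same distribution, a change in the total RNA of a cell is not seen.

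Markers of cell division changed with serum as well. Of 12 measured proliferation markers 11 were lower in starved cells, with a median difference of -1.08. Their summed linear level lay between 2129 and 2138 on the starved E2F3 LQ arrays and between 1411 and 1586 on the starved WT arrays. On the proliferating arrays it was 3261 to 5204 for E2F3 LQ and 3812 to 4095 for WT. Some markers of other cell types also changed. Of 11 macrophage and blood markers 4 were lower in starved cells, C1qa, C1qb, C1qc and Mrc1, and 0 were higher. The other 7 spread to both sides of 0, among them Adgre1 (0.76) and Lyz2 (0.48), and the median of the 11 was -0.16, with summed levels of 1458 to 3252 on starved E2F3 LQ, 4001 to 4114 on starved WT, 901 to 4532 on proliferating E2F3 LQ and 2931 to 6133 on proliferating WT arrays. Of 3 endothelial markers 2 were higher, Cd34 and Tek, and of 2 epithelial markers 1 was lower, Krt19. The part these cells play in the values of the ribosome biogenesis genes was not tested.

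Myc was dim in these cells and was seen above background only while they proliferated. Its probe stood at 4.51 and 4.33 on the starved E2F3 LQ arrays and 4.57 and 4.40 on the starved WT arrays, against 5.67 and 4.93 on the proliferating E2F3 LQ arrays and 5.86 and 4.86 on the proliferating WT arrays. The detection p-value was 0.114 to 0.436 on the 4 starved arrays and 0 to 0.0301 on the 4 proliferating ones, so the groups did not overlap and the starved cells give only a bound. Taken from the mean of the 4 proliferating arrays to the lowest detected signal of the starved arrays, Myc was at least 1.52-fold lower in starved cells. This bound holds only for the background correction and offset used here, since the fitted difference was smaller under others, as given below. Nor does it hold clone by clone. The lowest detected signal was 4.71 to 4.74 on the starved arrays, and proliferating E2F3 LQ clone 4 (4.93) and WT clone 16 (4.86) lay close to it. The fitted difference of -0.88 ± 0.25 (SE; limma, adjusted p = 0.0461) is a description, since the probe passed the detection filter through the proliferating arrays alone. Among proliferating cells 1 clone of each genotype was high, with E2F3 LQ clone 2 and WT clone 1 well above E2F3 LQ clone 4 and WT clone 16. A further Myc probe was detected on 0 of 8 arrays and gave a difference of 0.03. The Myc call lay close to the threshold, and the difference was -0.26 without background correction (limma, adjusted p = 0.0871) and -0.43 with an offset of 50 (adjusted p = 0.0791). The call was also lost when any of 6 of the 8 arrays was left out, proliferating E2F3 LQ clone 2 among them, and stood without proliferating E2F3 LQ clone 4 or WT clone 16.

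RNA polymerase I was represented by Polr1a, its largest subunit, and Ubtf, which binds and opens the ribosomal genes, and 0 of the 2 were called. Ubtf stood at 7.85 and 7.77 on starved E2F3 LQ and 7.81 and 7.94 on starved WT arrays, against 7.99 and 8.40 on proliferating E2F3 LQ and 8.11 and 8.41 on proliferating WT arrays. The starved arrays all lay below the proliferating ones, by the narrowest margin in clone 2, and the difference of -0.39 ± 0.14 did not pass the test (limma, adjusted p = 0.0820). Polr1a had 9.09 and 8.97 on starved E2F3 LQ and 9.12 and 9.14 on starved WT arrays, against 9.03 and 9.37 on proliferating E2F3 LQ and 9.22 and 9.37 on proliferating WT arrays. Here the groups overlapped through proliferating E2F3 LQ clone 2, and the difference was -0.17 (limma, adjusted p = 0.339), or -0.26 without that array (adjusted p = 0.134). With the mean over its detected probes in place of the brightest, the difference of Polr1a was -0.50 and passed (limma, adjusted p = 0.0216).

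Of the 4 box C/D proteins, the catalytic subunit and a core partner were lower in starved cells. Fbl, the methyltransferase of the particle, stood at 9.79 and 9.91 on starved E2F3 LQ and 9.75 and 9.77 on starved WT arrays, against 10.52 and 10.67 on proliferating E2F3 LQ and 10.80 and 10.38 on proliferating WT arrays. The starved values sat close together and far below the proliferating ones. The difference was -0.79 ± 0.13 (limma, adjusted p = 0.00718), which puts the starved level at 58.0% of the proliferating level, and it was -0.61 to -1.05 in the 4 clones.

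Nop56, a core protein of the same particle, had 8.22 and 8.0 on starved E2F3 LQ and 8.08 and 8.05 on starved WT arrays, against 8.62 and 8.89 on proliferating E2F3 LQ and 9.04 and 8.80 on proliferating WT arrays. Again the groups did not overlap, and the difference was -0.75 ± 0.12 (limma, adjusted p = 0.00751). Nop58 is the paralog that sits beside Nop56 in the particle, and it differed from its partner in direction. Its level was 9.64 and 9.82 on starved E2F3 LQ and 9.85 and 9.81 on starved WT arrays, against 9.27 and 9.72 on proliferating E2F3 LQ and 9.80 and 9.64 on proliferating WT arrays. The starved array was the higher in all 4 clones, by 0.36 in E2F3 LQ clone 2 and by 0.05 to 0.17 in the others. The fitted difference was 0.17 ± 0.13 and did not pass (limma, adjusted p = 0.398). Rrp9, which belongs to the particle that guides early cuts of the precursor, had a difference of -0.26 (limma, adjusted p = 0.259).

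The promoters of these paralogs are shown because Nop56 was called lower and Nop58 was not. In RefSeq's sequence (build GRCm38.p6) Nop56 holds neither the E-box CACGTG, which Myc binds with Max, nor the E2F motifs TTTCCCGC and TTTGGCGC on either strand between 250 bases before and 50 after its start. Its 100 bases before the start, at chr2:130274312-130274411 (+ strand), and 30 bases of the Nop58 promoter, at chr1:59684887-59684916 (+ strand) with the E2F motif in capitals (the reverse complement of TTTCCCGC), read
Nop56: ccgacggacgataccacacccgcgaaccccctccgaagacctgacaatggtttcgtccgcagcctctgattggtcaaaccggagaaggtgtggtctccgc
Nop58: ttctactgtggGCGGGAAAaacccggaaat

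The box H/ACA proteins gave no call. Dkc1, the pseudouridine synthase, was not detected, and its partners Nhp2, Gar1 and Nop10 were. Nhp2 stood at 9.36 and 9.30 on starved E2F3 LQ and 9.47 and 9.16 on starved WT arrays, against 9.42 and 9.91 on proliferating E2F3 LQ and 9.80 and 9.86 on proliferating WT arrays. Of the proliferating arrays only that of E2F3 LQ clone 2 lay among the starved values, and the difference was -0.43 ± 0.15 (limma, adjusted p = 0.0752), or -0.55 without it (adjusted p = 0.0165). Gar1 had 9.67 and 9.70 on starved E2F3 LQ and 9.66 and 9.70 on starved WT arrays, against 9.46 and 10.21 on proliferating E2F3 LQ and 9.86 and 9.95 on proliferating WT arrays. Its 4 starved values were almost equal, and proliferating E2F3 LQ clone 2 lay below all of them, with a difference of -0.19 (limma, adjusted p = 0.460), or -0.37 without that array (adjusted p = 0.0394). The difference of Nop10 was 0.21, or 0.00 without proliferating E2F3 LQ clone 2, and that of Nolc1, a chaperone of snoRNPs, was -0.03. Nolc1 was dim, with 4.58 and 4.73 on starved E2F3 LQ and 4.87 and 4.87 on starved WT arrays, against 4.58 and 4.79 on proliferating E2F3 LQ and 4.98 and 4.83 on proliferating WT arrays, and it was detected on 6 of the 8 arrays.

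Among 5 measured small-subunit factors, Noc4l was lower in starved cells and its partner Nop14 was not. In yeast the counterparts of these proteins bind each other in the assembly that makes the small subunit. Noc4l had 7.02 and 7.45 on starved E2F3 LQ and 7.12 and 7.01 on starved WT arrays, against 7.87 and 7.70 on proliferating E2F3 LQ and 8.08 and 8.05 on proliferating WT arrays. The groups did not overlap, although starved E2F3 LQ clone 4 came close to its proliferating level, and the difference was -0.77 ± 0.13 (limma, adjusted p = 0.00808). Nop14 stood at 6.22 and 6.41 on starved E2F3 LQ and 6.19 and 6.92 on starved WT arrays, against 5.53 and 5.82 on proliferating E2F3 LQ and 6.25 and 6.05 on proliferating WT arrays. That is a difference of 0.52 ± 0.18, the highest of the 30 genes, with 1 clone of 4 in the other direction (limma, adjusted p = 0.0779).

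Nob1, the nuclease of the final cut of small-subunit RNA, had 8.0 and 7.96 on starved E2F3 LQ and 7.96 and 8.03 on starved WT arrays, against 8.52 and 8.37 on proliferating E2F3 LQ and 8.62 and 8.13 on proliferating WT arrays. On this probe the groups did not overlap, and the difference of -0.42 ± 0.14 missed the threshold (limma, adjusted p = 0.0633). A further Nob1 probe, also detected on 8 arrays, gave a difference of -0.12. On it the groups overlapped, with proliferating WT clone 16 (8.01) below the starved arrays (8.03 to 8.07). Rrp12, which in yeast takes part in subunit export, and Tsr1, a late factor that in yeast blocks early use of the small subunit, had differences of -0.13 and 0.04, which were -0.35 and -0.08 without proliferating E2F3 LQ clone 2, and Tsr1 was detected on 5 of 8 arrays. The promoter of Noc4l, shown as that of the small-subunit gene whose decrease stood whichever array was left out, holds none of the 3 motifs. Its 100 bases before the start, at chr5:110653383-110653482 (- strand), read
Noc4l: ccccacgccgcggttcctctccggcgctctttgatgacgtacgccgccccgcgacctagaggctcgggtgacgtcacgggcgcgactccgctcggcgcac

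Of the 11 measured large-subunit factors 4 were called lower. Mrto4, whose yeast counterpart holds the place of a stalk protein on the growing subunit, stood at 8.09 and 8.09 on starved E2F3 LQ and 7.98 and 8.06 on starved WT arrays, against 8.54 and 8.72 on proliferating E2F3 LQ and 8.91 and 8.51 on proliferating WT arrays. The starved values lay in a narrow band below all proliferating ones (difference -0.61 ± 0.13; limma, adjusted p = 0.0149). Nip7, a factor of precursor processing, had 8.62 and 8.73 on starved E2F3 LQ and 8.60 and 8.84 on starved WT arrays, against 9.13 and 9.52 on proliferating E2F3 LQ and 9.36 and 9.29 on proliferating WT arrays. It also showed no overlap, and its difference was -0.62 ± 0.13 (limma, adjusted p = 0.0160).

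Ebna1bp2, known from yeast as an early large-subunit factor, had 8.70 and 8.66 on starved E2F3 LQ and 8.63 and 8.47 on starved WT arrays, against 8.85 and 9.25 on proliferating E2F3 LQ and 9.27 and 9.12 on proliferating WT arrays. The difference of its brightest probe was -0.51 ± 0.13 (limma, adjusted p = 0.0306), but its other detected probes went the other way, by 0.11 and 0.06. With the mean over its probes the difference was -0.11 and the call was lost (limma, adjusted p = 0.598). Rrp1b, a nucleolar protein bound to early large-subunit particles, stood at 7.02 and 7.14 on starved E2F3 LQ and 7.36 and 7.03 on starved WT arrays, against 7.29 and 7.80 on proliferating E2F3 LQ and 7.77 and 7.75 on proliferating WT arrays. Proliferating E2F3 LQ clone 2 lay below starved WT clone 1, and the difference of -0.52 ± 0.15 passed by a small margin (limma, adjusted p = 0.0464).

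The other 7 large-subunit genes gave no call, and their differences spread to both sides of 0. They were -0.24 for Ppan, -0.20 for Gnl3, the GTPase also named nucleostemin, and -0.20 for Nop2, a methyltransferase of ribosomal RNA. Pes1 and Bop1 form a complex with Wdr12 that is needed to cut the large-subunit precursor, and their differences were 0.15 and 0.19. Those of Nle1 and Wdr74 were 0.16 and 0.03. For Bop1 the starved array was higher by 1.25 in E2F3 LQ clone 2 and differed by -0.31 to -0.07 in the other 3 clones, and for Pes1 the value of E2F3 LQ clone 2 was 0.98 against -0.31 to 0.07 in the others. The mean of these genes therefore rests on 1 clone. Without its proliferating array the differences were -0.01 for Bop1, -0.18 for Pes1, -0.02 for Nle1, -0.04 for Wdr74 and -0.39 for Gnl3. Without proliferating E2F3 LQ clone 4 in its place, the difference of Pes1 was 0.47. Without both arrays of E2F3 LQ clone 4, the differences were 0.53 for Bop1 and 0.03 for Gnl3.

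The abundant nucleolar proteins, the chaperones Npm1 and Ncl and the RNA helicase Ddx21, were not called. Npm1 had 12.57 and 12.67 on starved E2F3 LQ and 12.58 and 12.59 on starved WT arrays, against 12.68 and 13.05 on proliferating E2F3 LQ and 12.96 and 12.79 on proliferating WT arrays. No starved value reached a proliferating one, yet the gap was small, with a difference of -0.27 ± 0.12 (limma, adjusted p = 0.162). Ncl stood at 8.25 and 8.16 on starved E2F3 LQ and 8.41 and 8.16 on starved WT arrays, against 7.28 and 8.47 on proliferating E2F3 LQ and 7.94 and 8.39 on proliferating WT arrays. Proliferating E2F3 LQ clone 2 was by far the lowest of the 8, and the difference was 0.22 ± 0.26 (limma, adjusted p = 0.571), or -0.07 without that array. That of Ddx21 was 0.05. Of the 10 genes with a positive difference, 5 had a negative one when arrays were scaled to a common median in place of quantile normalization, which moved the median of all genes by -0.13: Pes1, Wdr74, Nle1, Ncl and Ddx21.

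Counted by step, the median difference was -0.28 for RNA polymerase I (2 of 4 genes measured), -0.51 for box C/D (4 of 4), -0.19 for box H/ACA (3 of 4), -0.13 for the small subunit (5 of 7), -0.20 for the large subunit (11 of 14) and 0.05 for the abundant nucleolar proteins (3 of 3). With so few genes at a step, differences between steps were not tested.

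The same comparison was made within each genotype. In WT cells 3 genes were lower after starvation, Noc4l by -1.0 (limma, adjusted p = 0.0235), Nop56 by -0.85 (adjusted p = 0.0330) and Fbl by -0.83 (adjusted p = 0.0389), and 0 were higher. These are 10% of the measured genes, beside 4.3% of all features called lower and 3.87% called higher. With the clone as a block, since the same clones were measured in both conditions, only Noc4l passed in WT cells, with adjusted p = 0.0519 for Fbl and 0.0567 for Nop56 (limma). Without any 1 of the WT arrays 0 genes were called in WT cells, where at most 1.01% of all features were called lower. Without either starved E2F3 LQ array 1 was called, Noc4l, beside 2.14% of features. In E2F3 LQ cells 0 genes were called in either direction, beside 2.14% of features called lower and 2.46% called higher, and the smallest adjusted p was 0.0658, for Fbl. Without adjustment 7 genes were lower in starved E2F3 LQ cells at p under 0.05 (23.3%, beside 11.8% of all features). The difference between the responses of the genotypes was tested as an interaction, and 0 genes were called at the adjusted threshold (beside 0% of all features). At an unadjusted p under 0.05 it held 0 of the 30 genes, beside 1.53% of features. The median interaction over the genes was 0.10, and the 95% interval of a single gene reached 0.68 to either side at the median.

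The E2F3 LQ clones differed from each other in the proliferating state. Proliferating E2F3 LQ clone 2 had the lowest level of the 4 proliferating arrays for 22 of the 30 genes (73.3%, against 41.1% of all features). It lay below the other proliferating E2F3 LQ clone for 26 genes (86.7%, against 57.4%), the exceptions being Myc, Noc4l, Nob1 and Ddx21. The proliferating WT clones had no such split, with clone 1 above clone 16 for 18 genes (60%, against 46.7%). Within clones the median difference of starved minus proliferating was -0.03 in E2F3 LQ clone 2 and -0.41 in E2F3 LQ clone 4, and in WT it was -0.31 in clone 1 and -0.24 in clone 16. The starved array was lower for 16 genes in E2F3 LQ clone 2, for 26 in clone 4, and for 23 and 25 in the WT clones 1 and 16. Over all features it was lower for 46.3% in E2F3 LQ clone 2, 51.7% in clone 4, and 49.2% and 52.4% in the WT clones 1 and 16. Myc itself was not low on the array that stood apart, where its 5.67 was the higher of the E2F3 LQ values.

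Without that array, 11 genes were lower in starved cells over both genotypes and the median was -0.35, beside 15.0% of all features called lower. Ubtf, Gar1, Nhp2 and Gnl3 then passed and Myc did not. The same array also carried high levels of genes induced by interferon. Isg15, a ubiquitin-like modifier, stood at 11.72 there and 7.48 in the other E2F3 LQ clone, against 8.97 and 8.49 in the proliferating WT clones. On the 4 starved arrays Isg15 was 12.02 to 12.89. The summed level of 13 such genes was 19844 to 33596 on starved E2F3 LQ, 19624 to 34501 on starved WT, 1808 to 28515 on proliferating E2F3 LQ and 2500 to 3249 on proliferating WT arrays. Whether this has a part in the levels of the ribosome biogenesis genes was not tested.

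Leaving out 1 array at a time kept Fbl, Nop56 and Noc4l among the genes called lower in all 8 fits. The other called genes were less firm. Rrp1b kept its call only without proliferating E2F3 LQ clone 2, and Ebna1bp2 only without proliferating E2F3 LQ clone 2 or clone 4. Mrto4 lost its call without any starved array. Nip7 lost its call without starved E2F3 LQ clone 2 or clone 4, starved WT clone 1 or proliferating WT clone 1. There were 3 genes called lower without starved E2F3 LQ clone 2 (beside 5.72% of all features) or clone 4 (5.89%), 3 without starved WT clone 1 (5.01%) and 4 without starved WT clone 16 (4.7%). The count was 7 without proliferating E2F3 LQ clone 4 (14.5%), 4 without proliferating WT clone 1 (5.82%) and 7 without proliferating WT clone 16 (8.54%). Pes1 and Ncl were called higher without proliferating E2F3 LQ clone 4, beside 15.5% of all features, and Nop14 without starved WT clone 1, beside 4.5%. Without either WT clone, both its arrays removed, 0 genes were called, as 0% of all features were lower without clone 1 and 0.48% without clone 16.

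The second question was whether the E2F3 mutation changed these genes, and no difference between the genotypes was called. In starved cells 0 of the 30 genes passed, as did 0% of all features, and in proliferating cells 0 genes and 0% of features passed. At an unadjusted p under 0.05 there were 0 genes in starved cells (beside 2.21% of features) and 1 in proliferating cells (3.33%, beside 2.83% of features). That gene was Bop1, at 5.76 and 6.54 in proliferating E2F3 LQ cells, against 6.86 and 6.87 in proliferating WT cells. Both mutant clones lay below the WT clones, clone 2 by far the most, and the difference of -0.71 had a 95% interval of -1.41 to -0.01 (limma, with a lowest adjusted p of 0.999 among the 30 genes). In starved cells Bop1 was at 7.02 and 6.41 in E2F3 LQ, against 6.56 and 6.79 in WT, which overlap.

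Myc had a genotype difference of -0.06 in starved cells, where it was not above background, and of -0.06 in proliferating cells, with an interval of -0.90 to 0.79 that leaves a change in either direction possible. The median over the 30 genes was 0.00 in starved and -0.16 in proliferating cells. In proliferating cells 25 of the 30 differences were negative, beside 55.3% of all features. The proliferating median was 0.07 without E2F3 LQ clone 2. Without the proliferating array of E2F3 LQ clone 4, Pes1 was called lower in proliferating E2F3 LQ than in WT cells (beside 1.16% of all features), and without both arrays of that clone Bop1 and Pes1 were (beside 1.26%). The mutant is then only clone 2, which stood apart and was assumed to vary like the other groups. Both E2F3 LQ clones lay below both WT clones for 4 genes in starved cells (13.3%, against 16.9% of all features) and above them for 6 (20%, against 17%). In proliferating cells they lay below for 5, Bop1, Noc4l, Nop14, Nolc1 and Ppan (16.7%, against 12.3%), and above for 0 (against 9.54%). The 95% interval of a gene's genotype difference reached 0.48 to either side at the median.

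Other genes of ribosome biogenesis, taken from wider lists of the same steps, were called lower at about the share of all features. Of 98 measured, 10 were lower in starved cells and 5 higher, which is 10.2% lower beside 11.5% of all features, while 10.9% of all features were higher. The median difference was -0.14, with 66 negative values, where 49.9% of all features were negative. The polymerase I list had 2 lower and 2 higher of 9. Taf1d, a subunit of the selectivity factor that places the polymerase on the ribosomal promoter, had a difference of -1.02 (limma, adjusted p = 0.00228), and Polr1d, a subunit shared with RNA polymerase III, -0.59 (adjusted p = 0.0118). Taf1d stood at 6.96 and 7.17 on starved E2F3 LQ and 7.01 and 7.02 on starved WT arrays, against 8.25 and 8.0 on proliferating E2F3 LQ and 8.04 and 7.95 on proliferating WT arrays. This decrease was the deepest among the 98 genes and was present in all 4 clones. The polymerase I subunits Twistnb and Polr1e were higher, by 0.51 and 0.39.

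Small-subunit factors gave 2 lower, Krr1 (-0.64) and Riok1 (-0.55), and 1 higher, Utp23 (0.39), of 39. Among 41 large-subunit factors 6 were lower, led by Rsl1d1 (-0.63) and Nol12 (-0.58), and 2 were higher. Of 10 further snoRNP factors 0 were called. In the Myc family Mycl, a paralog of Myc, was called of 10 measured. It had 4.61 and 4.53 on starved E2F3 LQ and 4.59 and 4.40 on starved WT arrays, against 6.17 and 5.40 on proliferating E2F3 LQ and 6.29 and 5.51 on proliferating WT arrays. As with Myc, no starved array showed it above background, and clone 2 and clone 1 were the higher of the proliferating pairs. Taken from the mean of the proliferating arrays, Mycl was at least 2.17-fold lower in starved cells. The adjusted p of Mycl, 0.00873 (limma), is a description, as Mycl too passed the filter through the proliferating arrays alone.

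Genes of metabolism and translation that Myc is known to activate formed the last list. Of 25 measured, 7 were lower in starved cells and 1 was higher, beside 11.5% and 10.9% of all features, with a median difference of -0.30. The transferrin receptor Tfrc had the deepest decrease, by -1.37 (limma, adjusted p = 0.00869), and the CTP synthase Ctps was the one that rose, by 1.17 (adjusted p = 0.00281). The rest of the 7 were Eif5a, Umps, Nme1, Gart, Odc1 and Cad, at -0.77 to -0.47. Genotype differences were called for 0 genes of these lists.

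The promoters of the set were searched for the same motifs, in 32 of the 38 genes that the RefSeq table held, Myc and Fbl not among them. The E-box was found in 6 (18.8%, beside 8.09% of 27025 genes): Rrn3, Wdr43, Tsr1, Pes1, Nop2 and Nle1. The 4 of these that were measured were not called, where 8 of the 30 measured genes were (26.7%). Of the 6 called genes that were searched, 0 had the motif. An E2F motif was found in 3 genes (9.38%, beside 1.8%), Nop58 and Nolc1 with TTTCCCGC (1.24% of genes) and Ncl with TTTGGCGC (0.585%), and these too were not called. With so few genes, these counts cannot show whether a motif and a call go together, and this was not tested. A match is a run of letters and not a measured site. The sites of the measured genes other than Nop58 are printed to show their surroundings, with the motif in capitals: Nop2 at chr6:125131811-125131840 (+ strand), Pes1 at chr11:3963965-3963994 (+), Tsr1 at chr11:74898092-74898121 (+), Nle1 at chr11:82908355-82908384 (-), Nolc1 at chr19:46075719-46075748 (+) and Ncl at chr1:86359661-86359690 (-).
Nop2: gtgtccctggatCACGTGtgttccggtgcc
Pes1: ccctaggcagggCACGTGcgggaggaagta
Tsr1: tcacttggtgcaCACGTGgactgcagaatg
Nle1: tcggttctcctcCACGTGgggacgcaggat
Nolc1: aatttgcaagtTTTCCCGCctcggacagga
Ncl: acacacaagccGCGCCAAActcgcccgtcc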

How the data were processed

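For each probe and array the authors deposited a signal intensity with no visible background correction or normalization, and a detection p-value. A table of the authors' processed intensity values served as an alternative. The study's methods name GenomeStudio and Mouse WG-6 arrays, and the files held 25697 probes, of which 23978 had 1 gene symbol, 0 several and 1719 none. Intensities were normalized with limma's neqc (offset 16). The detection filter kept 13666 probes, or 10214 features. R 4.3.3, limma 3.58.1 and statmod 1.5.0 were used, and matplotlib 3.10.9 for figures. The linear model was fitted with lmFit and eBayes (4 residual and 3.27 prior degrees of freedom) and checked on simulated data. No exact permutation test of 2 clones against 2 can reach 0.05.

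The genes and the wider lists were chosen with earlier results of these data known. Values on every array are given for Myc, for the genes of each step with the smallest p in the serum comparison, for called genes and for a few others chosen after their values were seen (Nop58, Nop14 and, by genotype, Bop1). Of wider lists, the called genes with the largest differences are named.

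Each clone was measured in both serum conditions, as the labels give, so the arrays are paired by clone. The main model held the 4 groups only and did not use this pairing. Clone entered as a block in the alternatives. The deviations of a clone's arrays from their group means correlated at 0.291 for E2F3 LQ and 0.0906 for WT. Between genotypes, arrays of the same replicate number, which hold different clones, correlated at 0.473 in proliferating and 0.184 in starved cells. The cause of this was not tested.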

Additional observations from a re-analysis of the deposited data

How the results depend on the processing

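Alternatives changed the background correction (none, or an offset of 50), the scaling (median, cyclic loess, or the authors' processed values), the detection filter (none, or all 8 arrays) and the probes (their mean). Others used a variance trend, fewer arrays, a replicate block, the t-test named in the methods or another threshold, or left out an array or clone. The 8 decreases in starved cells kept their direction under each of them. Fbl, Nop56 and Noc4l lost their call only without a WT clone. The cause of the changes below was not tested.

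Members called in E2F3 LQ numbered 1 without background correction, with an offset of 50, with the trend and with the clone as a random block, and 3 at adjusted p under 0.10 or by the unadjusted t-test. In WT they numbered 1 under median scaling, 5 with only the arrays of the comparison, 6 at adjusted p under 0.10 or by the unadjusted t-test, and 0 at adjusted p under 0.01 or by the adjusted t-test. Over both genotypes they numbered 13 by the unadjusted t-test and 3 at adjusted p under 0.01. Of 10214 features, the unadjusted t-test passed 3882 over both genotypes, 1268 in E2F3 LQ and 2216 in WT. By this test the share of members that passed was therefore close to that of all features. These feature counts are not split by direction, while the members that passed were all lower in starved cells. The WT median was -0.18 without background correction, -0.19 with an offset of 50 and -0.37 under median scaling. Median scaling also gave -0.38 over both genotypes and 0.10 for starved E2F3 LQ against WT, and called 1479 features lower and 538 higher, against 1172 and 1116. Serum differences turned negative with it for Pes1 (-0.079), Wdr74 (-0.18), Nle1 (-0.035), Ncl (-0.00348) and Ddx21 (-0.16), and the genotype difference of proliferating Myc became 0.031.

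Beside the losses already given, the Myc call was lost with cyclic loess (0.0682), no detection filter (0.0980) and the t-test (0.0581), and that of Rrp1b with the authors' values (0.0516), no filter (0.0689), the trend (0.0510) and the t-test (0.0503), all limma but the t-tests.

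With the clone as a fixed replicate block the calls over both genotypes were 8, with a median of -0.20, and those in WT were 1. With a random block (correlation 0.118) they were 9 and 4. The replicate number as a block for the genotype comparison, where the numbers name different clones, left 0 calls. The fixed block changed no other call.

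Without single arrays or clones, calls in either direction ranged from 0 to 11 over both genotypes, 0 to 2 in E2F3 LQ, 0 to 6 in WT and 0 to 2 between proliferating genotypes (Bop1 and Pes1 lower without E2F3 LQ clone 4). Some were higher in starved cells: Pes1 and Ncl over both genotypes and in E2F3 LQ without proliferating E2F3 LQ clone 4, and without both arrays of that clone Bop1 and Pes1 over both genotypes and Bop1 in E2F3 LQ. Medians ranged from -0.35 to -0.07 over both genotypes, -0.41 to -0.03 in E2F3 LQ, -0.31 to -0.18 in WT, -0.045 to 0.020 between starved and -0.31 to 0.07 between proliferating genotypes, and -0.08 to 0.34 for the interaction. Serum differences with a sign change ranged from -0.16 to 0.53 for Bop1, -0.10 to 0.21 for Ddx21, -0.43 to 0.029 for Gnl3, -0.095 to 0.54 for Ncl, -0.023 to 0.35 for Nle1, -0.084 to 0.018 for Nolc1, -0.10 to 0.52 for Nop10, -0.18 to 0.47 for Pes1, -0.41 to 0.14 for Rrp12, -0.19 to 0.27 for Tsr1 and -0.069 to 0.14 for Wdr74. The genotype difference of Myc ranged from -0.15 to 0.023 in starved and -0.55 to 0.44 in proliferating cells. A median without E2F3 LQ clone 4 rests on a lone clone assumed to vary like the other groups.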
